A study of Homo sapiens with 6 samples.

Results

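Of the accessible sites that every library of the experiment detected, a subset ranked lower in each library from dexamethasone-treated cells than in each library from vehicle-treated cells, and these sites are described here. Accessibility was measured by DNase-seq in A549, a human lung adenocarcinoma cell line grown to near confluence. Cells received 100 nM dexamethasone for 1 h or 0.02% ethanol, the solvent, for 1 h, with 3 libraries per treatment. Peaks from the 6 libraries that shared at least 1 bp were merged to 81216 regions, of which 39934 had a peak in all 6 libraries and are called shared regions. The peaks of each library were ranked by −log10 q and the rank was expressed as a percentile, where 100 is the strongest. A shared region was a member when its highest percentile among the 3 dexamethasone libraries lay below its lowest percentile among the 3 ethanol libraries. There were 2555 members, which is 6.4% of the shared regions and 3.15% of all merged regions. The distance between those 2 percentiles is called the gap. Because these values chose the members, their percentiles, folds and peak widths are given as a description and were not tested.

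DNase I cuts DNA that is not wrapped in closed chromatin, so that promoters, enhancers and insulators stand out as hypersensitive sites where regulatory proteins are bound. Dexamethasone, a synthetic glucocorticoid, is a ligand of the glucocorticoid receptor, a transcription factor which on binding its hormone moves to the nucleus and binds mostly at sites that are already accessible. The receptor raises transcription of many genes and lowers that of others, among them inflammatory genes driven by AP-1 and NF-kB. The members had a peak in every library of both treatments, so they concern the rank of a called site and not its gain or loss. Regions are given by position in hg19, since no gene annotation or sequence of that build was used here.

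The 6 libraries held 58281 to 61344 peaks. Read depth is unknown, because the files give peaks without read counts. A percentile is a rank among the peaks of a list, and lists of different length and background are compared by it only in order, not in amount. The replicates are numbered 1 to 3 in the labels, without a statement that cultures were separate, so p-values measure only the spread between these libraries, which may be technical. With 3 libraries against 3, no single region can reach an exact two-sided p below 0.1, and no p-value is given for any region.

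How the number of members compared with that of other sets of 3 libraries depended on whether the replicate numbers were respected. For each of the 20 possible sets of 3 libraries, the shared regions were counted in which those 3 libraries all ranked below the remaining 3. The count for the dexamethasone libraries, 2555 (6.4%), had rank 4 among the 20. It was exceeded by 3048 regions low in dexamethasone replicates 1 and 3 with ethanol replicate 1, by 2713 low in dexamethasone replicate 3 with ethanol replicates 1 and 3, and by 2629 low in dexamethasone replicates 1 and 2 with ethanol replicate 1. The 18 sets that mixed both treatments ranged from 1101 to 3048 with a median of 1888. Each of those 3 larger sets held both libraries of a replicate number on the low side. Equally numbered libraries of both treatments deviated together from their treatment means. There are 6 mixed sets that, like the treatments, hold 1 library of each number, and these held 1101 to 2225 regions, all below 2555. The opposite class, shared regions ranked higher in every dexamethasone library, held 2031 (5.09%), and 6 mixed sets were larger. The excess of members over that class depended on the ranking: with ranks taken among shared regions alone, so that the 6 rankings had one length, 2243 regions were lower and 2314 higher after dexamethasone. By the percentiles used here, 54.7% of all shared regions had a higher mean with ethanol, by a median of 0.43 points.

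At wider gaps the members again stood above the 6 mixed sets that split the numbered pairs and were exceeded by 1 of the other mixed sets. A gap of at least 5 points was found for 704 members (1.76% of shared regions), against 682 regions (1.71%) of the opposite class and 154 to 784 in the 18 mixed sets, of which those splitting the pairs held at most 425. A gap of at least 10 points was found for 254 members (0.636%), against 36 to 281 in mixed sets and at most 117 in those splitting the pairs. At 20 points or more there were 34 members (0.0851%), and the largest mixed set, dexamethasone replicates 1 and 2 with ethanol replicate 1, had 35, whereas those splitting the pairs had at most 5. The pairing was read from these same percentiles and is not stated in the labels. The opposite class was the larger at these wide gaps. It held 324 regions (0.811%) with at least 10 points and 100 (0.25%) with at least 20 points, and no mixed set reached either count.

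**Figure D1:**
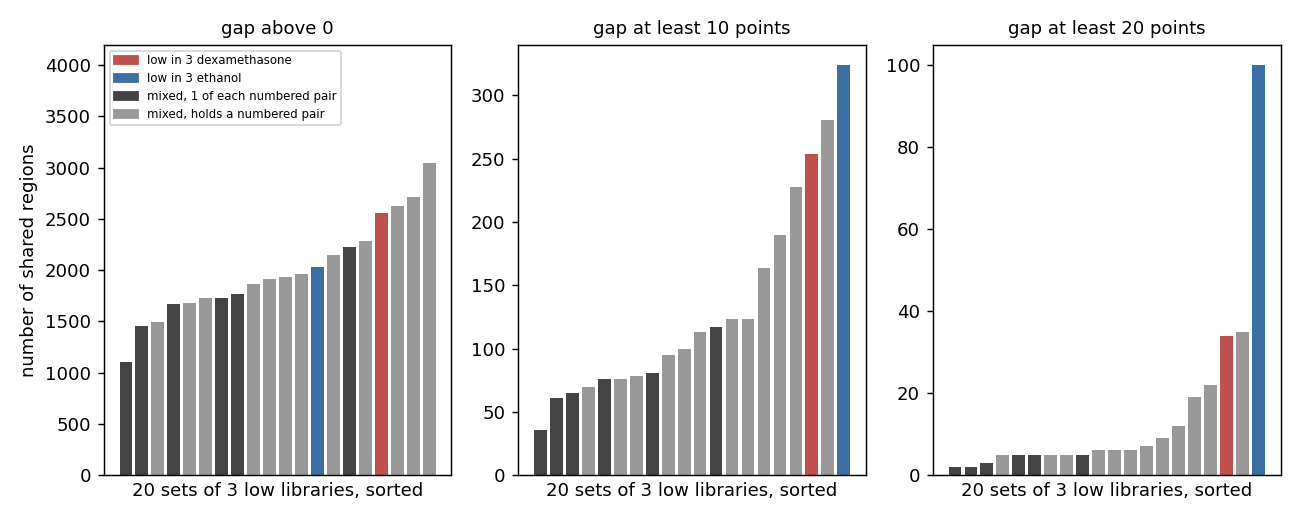
Number of shared regions (y axis) in which a set of 3 libraries ranked below the remaining 3, for the 20 sets sorted by count, at gaps above 0, of at least 10 and of at least 20 percentile points. The dexamethasone set (red) has ranks 4, 3 and 3 with 2555, 254 and 34 regions and lies above the mixed sets with 1 library of each replicate number (dark grey), while the ethanol set (blue) leads at 10 and 20 points with 324 and 100.

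Members were also counted within the numbered pairs. In 6450 shared regions (16.2%) the dexamethasone percentile was below the ethanol percentile in each of the 3 pairs, and in 5101 (12.8%) it was above in each. This paired rule is looser than the main one and so returns more regions. With at least 10 points in every pair, 753 regions (1.89%) were lower and 722 (1.81%) were higher after dexamethasone. Of those 753 regions, 553 (73.4%) were members.

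Most members differed by little. The median gap was 2.38 points, the lower quartile was 0.849 and the widest gap was 32.2. Close to the limit, 716 members had a gap of at most 1 point, and 1742 shared regions missed the rule by less than 1 point. The member nearest the limit, on chromosome 1 at 201458314 to 201458784, had 79.96 as its highest dexamethasone and its lowest ethanol percentile, with a gap of 0.00024. The nearest region outside it, on chromosome 2 at 74425376 to 74426537, had its highest dexamethasone percentile at 98.572 and its lowest ethanol percentile at 98.571. The mean ethanol percentile of a member exceeded its mean dexamethasone percentile by a median of 11.7 points, with quartiles of 6.10 and 18.4 and a maximum of 47.5. In the opposite class the largest difference, also as ethanol minus dexamethasone, was −73.9 points.

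Members were found from weak to strong sites, with a typical strength a little below that of all shared regions. Their median percentile was 54.3, 55.5 and 53.8 in dexamethasone replicates 1 to 3 and 67.5, 67.9 and 68.6 in ethanol replicates 1 to 3. Over all shared regions the medians were 65.3, 66.7 and 65.3 with dexamethasone and 65.4, 66.7 and 67.0 with ethanol. The members thus ranked near the typical shared region in vehicle and below it after dexamethasone, whereas the shared regions as a whole ranked alike in both. The opposite class was the reverse, with medians of 68.4, 67.4 and 69.4 with dexamethasone and 51.5, 53.1 and 53.6 with ethanol. Both classes were chosen for such a difference. By the authors' fold enrichment, a value of each peak in its own list, the median member peak reached 7.41, 7.52 and 7.14 in the dexamethasone lists and 8.85, 9.07 and 8.96 in the ethanol lists. The median over the 6 libraries' mean percentile was 60.6 for members, 59.4 for the opposite class and 64.3 for all shared regions, and in the mixed sets it was 61.2 to 69.7. Members made up 7.39% of shared regions with a mean percentile between 25 and 50 and 5.43% of those above 75. Wide gaps were nearly absent from the strongest sites: of the 254 members with at least 10 points, 170 had a mean percentile between 25 and 50, 61 between 50 and 75, 22 below 25 and 1 above 75. The opposite class was alike, with 195 of its 324 regions between 25 and 50 and 6 above 75. The percentile scale ends at 100, and its part in this was not tested.

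Member regions were compact. Their median merged width was 436 bp, against 482 bp for all shared regions and 492 bp for the opposite class, and 16 of the 18 mixed sets had a wider median. More than 1 peak in some library was found in 11.1% of members and 13.5% of shared regions. The strongest peak of a member was wider on average with ethanol in 1882 of 2555 members (73.7%), compared with 52.4% of all shared regions. The median width of that peak was 327, 335 and 320 bp in the dexamethasone libraries and 351, 359 and 358 bp in the ethanol libraries. Peak width and −log10 q come from the same signal, so width is no separate evidence. The summit stayed in place: the median summits of both treatments were a median of 10 bp apart and within 50 bp in 93.3% of members, against 11 bp and 92.9% over all shared regions.

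The member with the widest gap lay on chromosome 22 at 33915070 to 33915615. Its percentiles were 10.6, 14.99 and 15.1 in dexamethasone replicates 1 to 3 and 47.3, 56.5 and 48.1 in ethanol replicates 1 to 3. The peak was near the bottom of the dexamethasone lists and near the middle of the ethanol lists. Its width was 200, 240 and 200 bp after dexamethasone and 546, 514 and 362 bp after ethanol. The second was on chromosome 17 at 47235185 to 47235548, with percentiles of 13.2, 17.9 and 19.1 against 54.0, 50.9 and 54.8. Here the authors' fold enrichment was 4.76 ± 0.03 in the dexamethasone lists and 7.39 ± 0.33 in the ethanol lists (SD, n = 3 each).

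The largest difference of means among the members belonged to a region on chromosome 1 at 199991083 to 199991897. Its percentiles were 11.8, 15.4 and 2.70 after dexamethasone and 47.0, 65.5 and 60.1 after ethanol, a difference of 47.5 points. It had company of both kinds: a shared region stronger after dexamethasone lay 7.04 kb away and a region called in the 3 ethanol libraries alone lay 5.12 kb away. A second chromosome 22 region, at 18264114 to 18264853, had percentiles of 15.1, 19.6 and 17.5 against 66.2, 50.4 and 59.3. The nearest region called in the 3 dexamethasone libraries alone was 5.14 kb from it. On chromosome 11 at 57211919 to 57212337 the percentiles were 23.8, 27.9 and 18.1 against 59.9, 62.0 and 56.7, with the 2 treatments' summits 1 bp apart.

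The region on chromosome 9 at 139796875 to 139797297 was the strongest of the 12 widest gaps. Its percentiles were 47.3, 27.4 and 33.6 after dexamethasone and 75.1, 77.0 and 80.5 after ethanol. Dexamethasone replicate 1 was well above the other two here, and still far below the ethanol libraries. In the region on chromosome 17 at 42983460 to 42983795, with 30.9, 25.7 and 3.13 against 61.2, 61.9 and 58.7, dexamethasone replicate 3 was far below the others. Another member lay 25.7 kb from the region on chromosome 1 at 23729443 to 23729752, whose percentiles were 14.7, 18.3 and 12.6 against 45.4, 52.9 and 46.1.

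The remaining regions of the 12 had gaps of up to 27.1 points. On chromosome 10 at 102490374 to 102491183 the mean percentile was 8.82 ± 2.48 after dexamethasone and 44.0 ± 6.21 after ethanol (SD, n = 3 each). Ranked by fold enrichment, its difference of means was 10.7 instead of 35.2 points and its gap 6.40 instead of 27.1 points. On the X chromosome at 20380625 to 20381113 the 3 dexamethasone libraries lay within 9.17 to 9.90 and the ethanol libraries spread from 36.4 to 50.8. The region on chromosome 8 at 140891945 to 140892269 had means of 29.3 ± 10.7 and 64.6 ± 1.75 (SD, n = 3 each) and no other shared region within 159 kb. The region on chromosome 2 at 174897399 to 174897917, with means of 31.0 ± 6.66 and 63.8 ± 1.88 (SD, n = 3 each), had another member 7.01 kb away and an ethanol-only region 8.65 kb away.

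**Figure D2:**
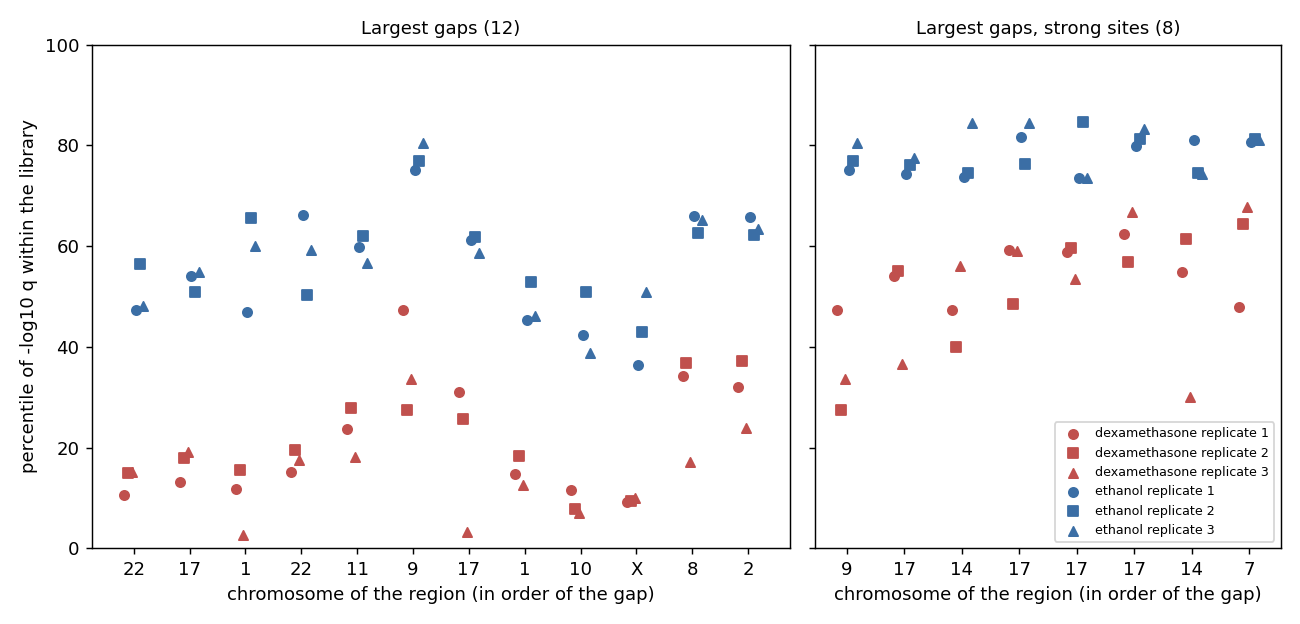
Percentile of −log10 q within each library (y axis) for the 12 members with the widest gaps (left) and the 8 widest gaps among members whose mean ethanol percentile was at least 75 (right), labelled by chromosome. Red symbols are the 3 dexamethasone and blue the 3 ethanol libraries, 1 symbol per library, and each region's red symbols lie below its blue ones, as the rule requires.

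Strong sites had narrower gaps. Of the members, 941 had a mean ethanol percentile of at least 75, and the chromosome 9 region described above led them. The next was on chromosome 17 at 35424868 to 35425391, with percentiles of 54.1, 55.1 and 36.6 after dexamethasone and 74.2, 76.0 and 77.5 after ethanol. Chromosome 17 held 4 of the 8 strong sites with the widest gaps, as well as 217 of the 2555 members and 2698 of the 39934 shared regions. The 8 sites were picked for their gaps, and this count was not tested. At 17349180 to 17349925 the percentiles were 59.2, 48.5 and 59.1 against 81.7, 76.4 and 84.4. At 76537878 to 76538239 they were 58.9, 59.6 and 53.6 against 73.4, 84.5 and 73.6, with ethanol replicate 2 high. At 71794227 to 71794844 they were 62.4, 56.8 and 66.7 against 79.8, 81.3 and 83.2, and a region called in the 3 dexamethasone libraries alone lay 1.52 kb away.

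The other strong sites were on chromosomes 14 and 7. The region on chromosome 14 at 73694776 to 73695557 had mean percentiles of 47.8 ± 7.97 after dexamethasone and 77.6 ± 5.94 with vehicle (SD, n = 3 each), and its summits were 224 bp apart between treatments, far more than the median of 10 bp. At 77428034 to 77428618 on the same chromosome, dexamethasone replicate 3 had a percentile of 29.9 and the other two 54.8 and 61.3, against 81.1, 74.6 and 74.4 after ethanol. The chromosome 7 region at 73508269 to 73509465 was the widest of those named, 1197 bp, with 10 peaks over the 6 libraries. Its ethanol percentiles were close together at 80.7, 81.2 and 81.1, while those after dexamethasone were 47.8, 64.3 and 67.7.

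Libraries whose percentiles were not used for the choice showed the same direction slightly more often than they did over shared regions in general. They did count towards the requirement of a peak in all 6 libraries. Regions were chosen by the rule on 2 dexamethasone and 2 ethanol libraries, and the remaining dexamethasone library was then compared with the remaining ethanol library, for each of the 9 ways to leave out such a pair. The 6668 to 8668 regions so chosen were lower after dexamethasone in the left-out libraries in 45.7 to 58.3% of cases, with a mean of 54.6%. Over all shared regions the same figure was 45.2 to 56.2%. The excess over all shared regions averaged 2.55 points, was above 0 in 7 of 9 choices and ranged from −1.71 to 7.95. For the 3 choices that left out equally numbered libraries it was 7.95, 7.81 and 1.57 points, with a mean of 5.77. For the unequally numbered choices it was −1.71 to 2.94 points. The 9 choices share libraries and are not independent, so they carry no p-value.

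Regions chosen with a gap of at least 10 points on 4 libraries kept their direction more often. They numbered 1043 to 1560 and were lower after dexamethasone in the left-out libraries in 47.7 to 66.9% of cases, on average 60.2%, with a mean excess of 8.14 points. The median left-out difference averaged 4.08 points, much less than the 10 points used for the choice. The excess was 16.6, 17.2 and 7.18 points, on average 13.7, where the left-out libraries had the same number (1, 2 and 3). Where dexamethasone replicate 3 and ethanol replicate 1 were left out it was −4.15, so that the chosen regions then went the other way. For regions chosen as higher after dexamethasone with the same gap, the excess was above 0 in 9 of 9 choices, from 10.9 to 27.6 points with a mean of 16.6. The difference between the directions was not tested.

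**Figure D3:**
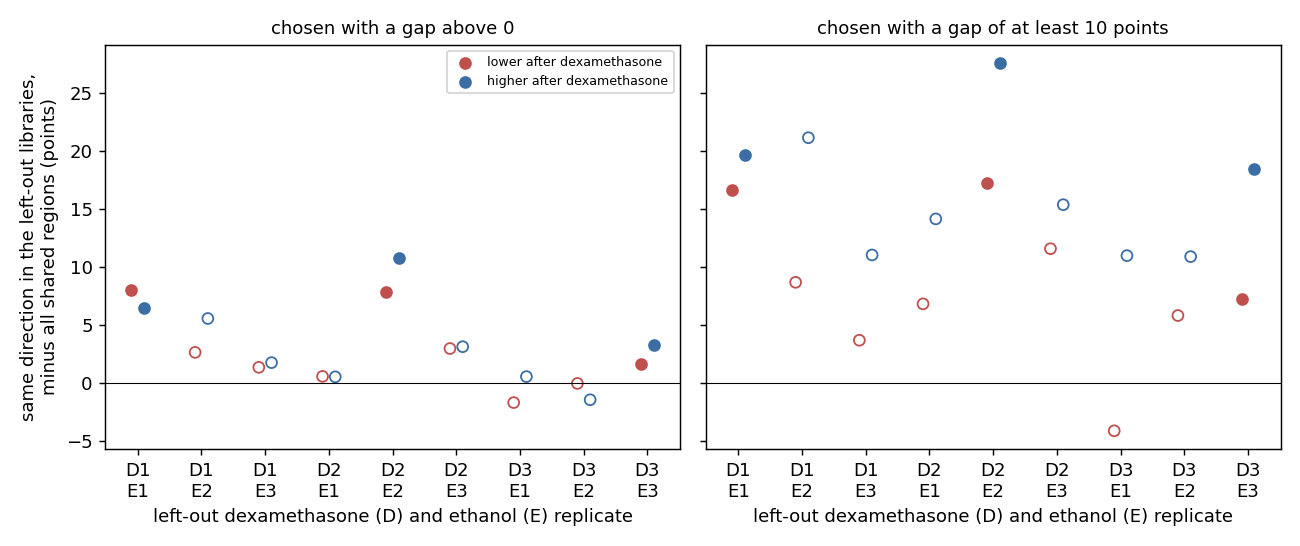
Share of regions that had the same direction in the left-out pair of libraries minus that share over all shared regions (y axis, percentage points), for each left-out dexamethasone (D) and ethanol (E) replicate (x axis), with regions chosen at a gap above 0 (left) or of at least 10 points (right). Red is lower and blue higher after dexamethasone, filled symbols are equally numbered pairs, and at 10 points red ranges from −4.15 to 17.2 and blue from 10.9 to 27.6.

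Sites close to the members leaned the other way. The regions called in 1 to 5 libraries could not be members, and 819 of them lay within 5 kb of a member, centre to centre. The libraries that called them were also those by which the members were chosen. Dexamethasone libraries with a peak outnumbered ethanol libraries at 395 of these and the reverse held at 299, so that ethanol led in 43.1% of the unequal ones. Within 5 kb of any shared region this figure was 50.3%, and around the 18 mixed sets it was 44.1 to 57.7%. It was 44.1 to 50.8% around mixed sets with 2 dexamethasone libraries low and 49.5 to 57.7% around those with 2 ethanol libraries low. Mixed sets thus share part of the choice by treatment and are no neutral reference. Whether the choice itself brings such a lean about was not tested. Around the opposite class, regions stronger after dexamethasone, ethanol led in 56.0%. At gaps of at least 10 points ethanol led at 28 regions and dexamethasone at 44 around members (38.9%). Around the opposite class the counts were 44 and 52 (45.8%), so that it then no longer leaned towards ethanol. These counts are small, and mixed sets were not measured at this gap. The lean was found between 1 and 5 kb, with 40.8% around members and 59.6% around the opposite class, and mixed sets from 44.7 to 59.4%. Below 1 kb the shares were 48.5 and 48.1%, and between 5 and 20 kb they were 53.9 and 47.8%, against 49.2 to 54.4% around the mixed sets at that distance.

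The same lean was seen library by library. Of the 819 partly called regions near members, dexamethasone replicates 1 to 3 had a peak in 49.0, 48.4 and 37.7%, and ethanol replicates 1 to 3 in 33.9, 38.3 and 38.8%. Near any shared region, the same libraries had a peak in 46.3, 46.6 and 36.5% and in 39.8, 44.4 and 43.2% of 10133 partly called regions. The first share minus the second averaged 1.85 ± 0.73 points over the dexamethasone libraries and −5.42 ± 0.95 points over the ethanol libraries (SD, n = 3 each), and the 2 groups did not overlap (exact two-sided permutation p = 0.1, the smallest possible; 0.1 after Benjamini-Hochberg adjustment over 2 tests). Around the opposite class it was −0.45 ± 0.64 and 3.37 ± 2.27 points (SD, n = 3 each; exact two-sided permutation p = 0.1, adjusted 0.1). Within numbered pairs, dexamethasone minus ethanol was 8.51, 7.78 and 5.53 points near members and −1.47, −4.30 and −5.66 points near the opposite class (exact two-sided sign-flip permutation p = 0.25 each, the smallest 3 pairs allow). The 5 kb window was chosen after seeing the data, and the design cannot reach a p under 0.1. Both classes were chosen by treatment in these same libraries and were not chosen again for the permuted labels. The p-values and the separation of the groups are therefore a description and no test of treatment.

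Shared regions next to members leaned likewise. Of the 629 shared regions within 5 kb of a member that were not members themselves, 274 (43.6%) had a higher mean percentile with ethanol, compared with 51.6% of all shared regions outside the class. Their median ethanol-minus-dexamethasone difference was −0.72 points. Next to the opposite class, 393 of 582 (67.5%) had a higher mean percentile with ethanol, compared with 57.6% of all shared regions outside that class. Around the 18 mixed sets the figure within 5 kb was 46.6 to 61.4%. It was 46.6 to 51.5% with 2 dexamethasone libraries low and 51.9 to 61.4% with 2 ethanol libraries low. Only the regions of the set itself were left out each time, so members could count among the neighbours of a mixed set. Members are higher with ethanol by the rule, which raises the mixed figures, and the comparison is not like for like. Between 5 and 20 kb from a member the figure was 55.1%, and 52.6 to 59.9% around mixed sets, with the same difference in the regions counted.

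**Figure D4:**
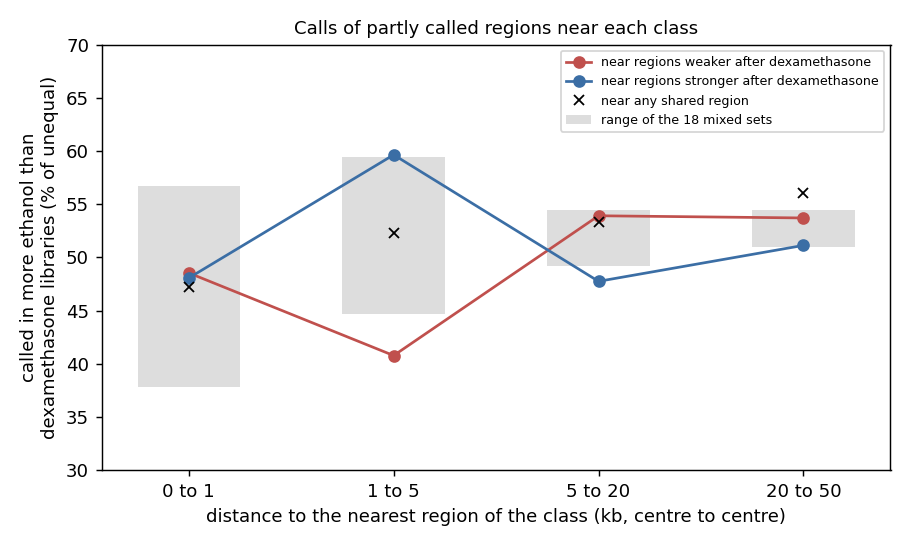
Share of partly called regions (called in 1 to 5 libraries, unequally between treatments) that were called in more ethanol than dexamethasone libraries (y axis, starting at 30%), by distance to the nearest region of a class (x axis, kb). Between 1 and 5 kb the share was 40.8% near members (red) and 59.6% near regions stronger after dexamethasone (blue), with 44.7 to 59.4% near the 18 mixed sets (grey) and 52.3% near any shared region (crosses).

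Neighbouring members were counted at 2 distances. Another member lay within 50 kb of 559 members (21.9%), while in the mixed sets, each measured against itself, this share was 10.2 to 21.5%, and in the opposite class 18.6%. Larger sets have nearer neighbours, but the mixed set of 3048 regions is larger than the member class. Within 10 kb the share was 4.66%, inside the 1.51 to 5.21% of the 18 mixed sets. The 6 mixed sets that split the numbered pairs reached 17.1% at 50 kb and 3.12% at 10 kb, and each of them was smaller than the member class. A region called in the 3 dexamethasone libraries alone lay within 50 kb of 203 members (7.95%), against 6.80% of shared regions and 4.74 to 8.56% of mixed-set regions. An ethanol-only region lay within 50 kb of 97 members (3.80%), against 3.60% of shared regions and at most 4.29% of mixed-set regions. Both shares lay within those of the 18 mixed sets. In the 6 that split the numbered pairs the shares were at most 6.55% and 3.57%.

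Runs of at least 3 members with steps of at most 50 kb numbered 41, against 5 to 37 in the 18 mixed sets and 5 to 18 in those splitting the numbered pairs. Larger sets form runs more easily, and the splitting sets held 1101 to 2225 regions against 2555 members. The counts were not adjusted for size, so they do not show that members cluster more. The longest held 6 members among 14 shared regions on chromosome 19, from 39888258 to 40006383, and none of the 14 was stronger after dexamethasone. Their gaps were narrow, from 0.066 to 5.72 points. The widest of them, at 39897263 to 39897660, had percentiles of 58.6, 55.2 and 37.8 after dexamethasone and 64.3, 64.7 and 70.6 after ethanol. The opposite class, with 2031 regions, had 24 runs, and its longest also held 6.

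A run on chromosome 9, from 114860040 to 114909591, included 4 of its 5 shared regions and 2 wide gaps. At 114888081 to 114888721 the percentiles were 0.81, 27.2 and 17.4 after dexamethasone and 51.6, 55.0 and 61.6 after ethanol. Dexamethasone replicate 1 had one of its weakest peaks there, and the 3 dexamethasone libraries were spread widely. At 114881651 to 114882197, a stronger site, they were 65.3, 65.2 and 51.8 against 81.7, 80.0 and 75.5. On chromosome 17, from 40440130 to 40499596, 4 of 8 shared regions were members, led by 40440130 to 40440808 with 60.6, 63.1 and 60.0 against 77.3, 73.6 and 74.5. Runs of 4 and 5 members on chromosomes 5 and 19 had no gap above 5.71 points. The runs described were selected for their size with the values known.

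By chromosome, members made up between 1.69% (1 of 59 shared regions on the Y chromosome) and 8.04% (217 of 2698 on chromosome 17) of the shared regions. Over all chromosomes the share was 6.4%. The shares were not adjusted for the size of a set or for the 24 comparisons, and no chromosome was tested. Chromosome 17 was the only one of 24 whose share lay outside that of the 18 mixed sets, which reached 7.64% there. It stayed above the 18 mixed sets under the 7 alternatives that rank, merge or filter peaks differently, with 7.26 to 8.40%, and was not recounted without single libraries. Chromosome 19 followed with 7.73%, within the 2.94 to 8.54% of the mixed sets. In the 6 mixed sets that split the numbered pairs the shares were at most 5.67% on chromosome 17 and 5.76% on chromosome 19. These sets held 1101 to 2225 regions in all against 2555 members, so lower shares follow in part from their size. For the opposite class, 5.09% of shared regions over all chromosomes, the shares were 4.71% on chromosome 17 and 3.50% on chromosome 19, the lowest of any chromosome.

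**Figure D5:**
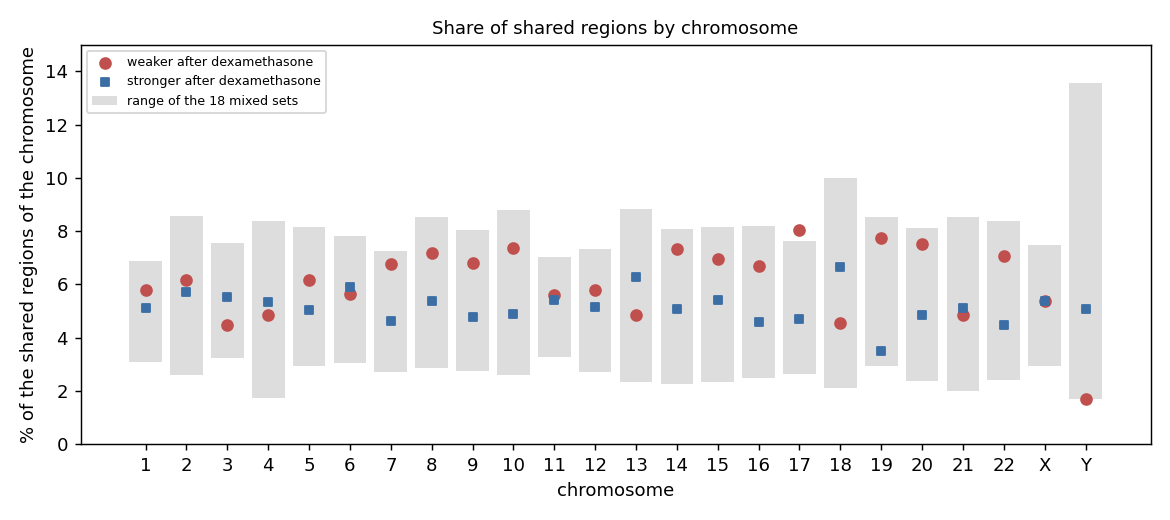
Share of the shared regions of each chromosome (y axis, %) that were members (red) or stronger after dexamethasone (blue), with the range over the 18 mixed sets in grey. Members on chromosome 17, at 8.04%, lie just above the grey range, which ends at 7.64%.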

How the data were processed

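DNase-seq peaks of 6 A549 libraries were analysed. The build hg19 and the tools MACS2 2.1.0, Bowtie, bedtools and CASAVA 1.3 are named in the submitters' processing notes, without roles or settings. Peak numbering restarts in each deposited list, so the authors called peaks per library as far as the files show. The deposited ratio is a fold enrichment over a background estimate of that library, and the deposited p-value and q-value are given as −log10, judged from the narrowPeak layout and the values. The deposited summit offset gave summit positions. Lists held 58281 to 61344 peaks. Read depth is unknown and no interval based on reads can be given.

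Peaks were merged, ranked with ties averaged and compared in Python 3.11.15 with pandas 2.3.3, numpy 2.4.6 and scipy 1.17.1. The code of the rule was run on simulated data with independent noise in each library. That simulation lacked the shared deviations of equally numbered libraries, so it cannot show how often the rule is met without a treatment effect here. Where a region held several peaks of a library, the strongest was used. Distances run from centre to centre. Positions count from 1. The members, lists and tests were chosen with earlier results of these data known. Named regions were the 12 widest gaps and the 8 widest among members with a mean ethanol percentile of at least 75.

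Equally numbered libraries were taken as pairs. Across shared regions, which are not independent, deviations from the treatment means correlated at 0.218, 0.122 and 0.160 for equal numbers. For unequal numbers they correlated at −0.18 to −0.00075. Deviations cancel within a treatment, so the values for unequal numbers follow in part from those for equal numbers. The pairing comes from this check, since the labels do not say what a number marks. Alternatives were fold enrichment as the measure, ranks among shared regions, lists of one length, −log10 q of at least 5, merging across 100 bp, 1 peak per library, autosomes, wider gaps, leaving out each library and the replicate block. Chosen after seeing the data were mixed sets limited to those with 1 library of each replicate number and left-out libraries limited to equal numbers. Planned motif, gene-list and marker steps were left out, as they require an hg19 genome.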

Additional observations from a re-analysis of the deposited data

How the results depend on the processing

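The number of members stayed within 1.5 times 2555 under 7 alternatives, at 2243 (ranks among shared regions) to 2570 (−log10 q of at least 5), and 2 to 4 of the 18 mixed sets were larger in each. None of the 6 mixed sets with 1 library of each replicate number, a comparison added after seeing the data, was larger than the members in any of these 7, at gaps above 0 or of at least 10 points. Ranked by fold enrichment there were 2567, of which 1775 were members (69.5% of members, 69.1% of the 2567). Ranked among shared regions alone, the order of the directions turned, with 2243 lower and 2314 higher after dexamethasone. Gaps of at least 5 points left 704 members and 682 regions of the opposite class, and gaps of at least 10 points, chosen after seeing the data, left 254 and 324. By fold enrichment no mixed set exceeded the members at 10 points (287 against at most 275). Leaving out 1 library gave 4276 to 5239 regions lower and 3509 to 4760 higher after dexamethasone, more by construction since fewer libraries must be separated. Mixed sets were larger in 5 of these 6 cases, the exception being without ethanol replicate 1 (5239 against at most 4940). The replicate block gave 6450 and 5101, also a looser rule. Pairing moved the left-out excess from 2.55 to 5.77 points and left the direction of the calls near members as it was in each pair. Without pairing that excess was 2.52 to 3.76 under 3 alternatives and 8.14 at gaps of at least 10 points. Within 10 kb, 4.66% of members had another member, inside the range of the mixed sets. For the 19 named regions, picked for wide gaps, leaving out a library cannot close the gap and shows nothing. Under the 6 other settings their gaps were 6.40 points or more, and the mean difference moved by over 1 SD in 17 of 113 values. Missing read depth limits what narrow gaps can show.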
